A study of Mus musculus with 9 samples.

Results

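The macrophage genes of the mouse ovary were followed across 3 Taf4b genotypes. They are 10 genes chosen by symbol, with earlier results of these data known. The genes are Lyz2, Adgre1 (deposited under its older symbol Emr1), Csf1r, Cd68, C1qa, C1qb, C1qc, Cd14, Mrc1 and Cd163. All 10 were found, each with 1 probe set, among 22231 genes with a symbol of their own and 25100 tested probe sets. RNA came from ovaries of 9 mice aged 3 weeks, of which 3 were wild type, 3 were heterozygous for loss of TAF4b and 3 were labelled as TAF4b knockouts, with 1 array per mouse. TAF4b is a germline and gonad form of a TFIID subunit, and TFIID places RNA polymerase at core promoters. The sources used here give no strain, no construction of the Taf4b allele and no other allele of the mice. The comparison asks whether the transcripts of an immune cell of the ovarian stroma differ with Taf4b dose.

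Macrophages are the most common resident immune cells of the ovary. They lie in the stroma, in the theca around follicles and in regressing follicles, where they take up dying cells, and they depend on the receptor CSF1R for survival. Their known transcripts cover surface receptors, lysosomal proteins, secreted complement and scavenger receptors, and the genes below are ordered by these roles. In RNA of a whole organ, more macrophages and more transcript per macrophage cannot be told apart.

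Values are the deposited RMA intensities, on a linear scale, and differences are on the log2 scale. Median intensities of the 9 arrays lay between 123.70 and 126.89, and precision is limited by having 3 arrays a genotype. Taf4b read 332 in knockout 1 and 403 in knockout 3, the lowest of the series, but 626 in knockout 2, which is 101% of the wild-type mean. Taf4b therefore goes against the label of knockout 2, so the 3 arrays are called labelled knockouts throughout, and values without knockout 2 are given where a call turns on them. No source used here places the Taf4b probe set inside or outside the deleted part. Oocyte and granulosa markers were bright, with Zp3, a zona pellucida protein, at a mean intensity of 3565 and Inha, the inhibin alpha subunit, at 9585.

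All 10 macrophage genes had a higher mean in the labelled knockouts than in wild type, with a median difference of 0.41 on the log2 scale (1.33-fold) and a range from 0.08 for Cd163 to 0.97 for Lyz2. The median over all 22231 genes was -0.0035. Against heterozygotes all 10 were also higher, with a median of 0.48, while heterozygotes and wild type differed by a median of -0.07. Over all probe sets, 48.3% had a higher mean in labelled knockouts than in wild type, 45.4% than in heterozygotes, and 51.3% a higher mean in heterozygotes than in wild type. No gene of the 10 passed an adjusted p of 0.05 over the 25100 probe sets in the first comparison (limma), where 0.012% of probe sets were called higher. At an unadjusted p under 0.05 in limma, 8 of the 10 were higher and 0 lower, against 4.89% of probe sets called higher and 5.77% lower at that threshold. Because the genes were chosen with earlier results of these data known, such counts are a description and not a test of the list. With array weights in limma, 3 passed: Lyz2, Adgre1 and C1qa (0.307% of probe sets called higher). The labelled knockouts are compared with wild type and heterozygotes in turn, so both comparisons share the same 3 arrays.

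**Figure D1:**
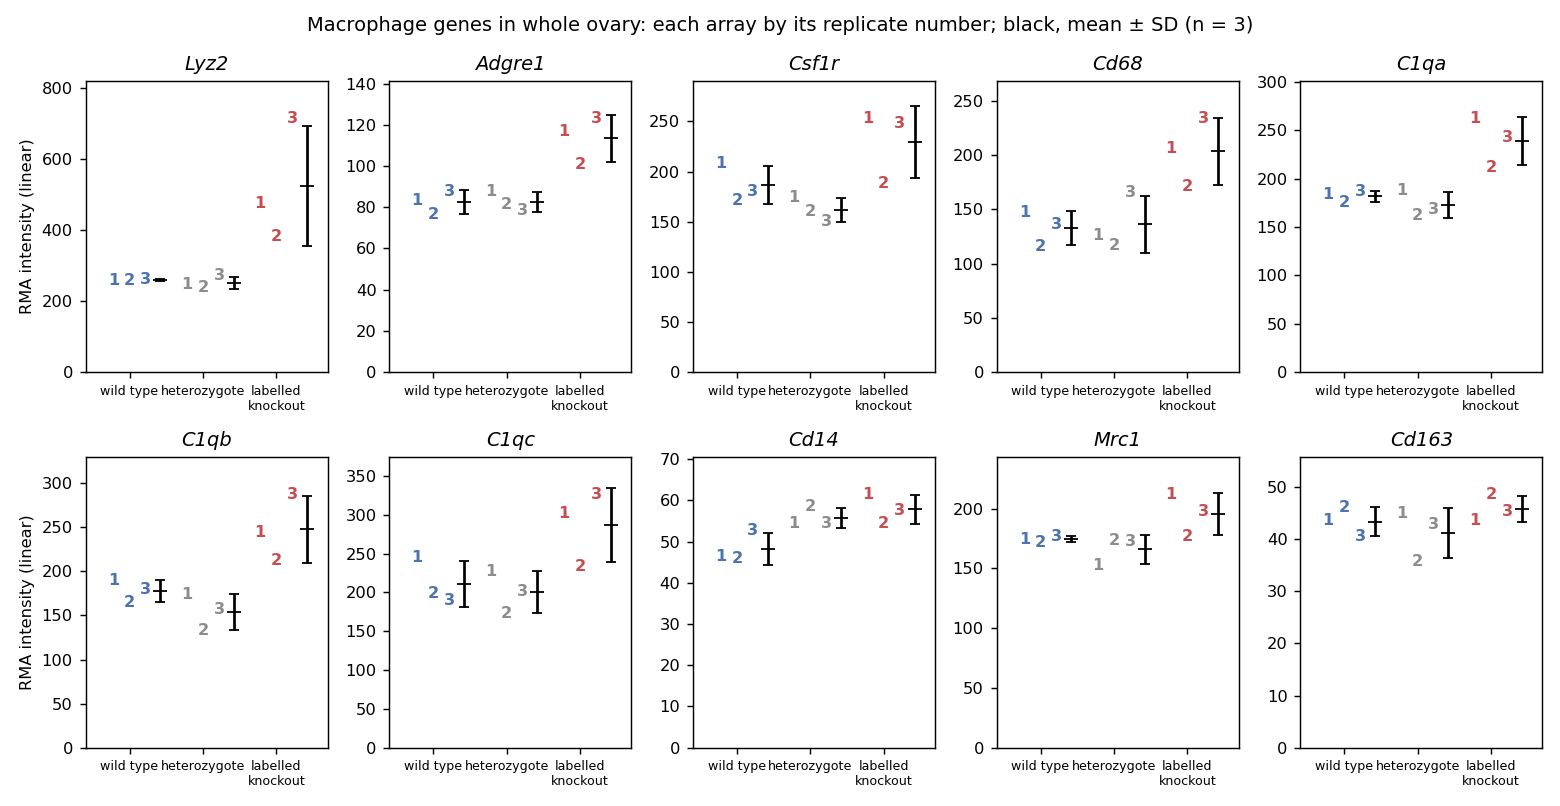
RMA intensity (linear scale, from 0) of each macrophage gene on each array. Digits are replicate numbers, coloured by genotype, and black marks are the mean ± SD of 3 arrays; Lyz2 lies between 238 and 270.5 on the 6 wild-type and heterozygous arrays and between 383 and 712 on the labelled knockouts.

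Lyz2 (probe set 10372648), the lysozyme of macrophages and other myeloid cells, differed most among the 10 between labelled knockouts and either other genotype. Its intensities were 257, 259 and 262 in wild type, 247, 238 and 270.5 in heterozygotes and 476, 383 and 712 in labelled knockouts 1, 2 and 3. The lowest labelled knockout lay above every other array, and the wild-type arrays varied little. The means were 259 ± 2.33 in wild type, 252 ± 17.0 in heterozygotes and 524 ± 170 in labelled knockouts (SD, n = 3). The log2 difference was 0.97 ± 0.19 (SE) from wild type (adjusted p = 0.123, limma) and 1.01 ± 0.19 from heterozygotes (adjusted p = 0.115, limma). The exact permutation p was 0.1 for both, two-sided, the smallest that 3 against 3 arrays allow. Knockout 3 stood at 275% of the wild-type mean, knockout 1 at 183% and knockout 2 at 148%. Lyz1, the neighbouring and very similar lysozyme of Paneth cells in the gut, stood at 0.25 ± 0.17 (adjusted p = 0.679, limma), and because the 2 genes are alike in sequence the split of signal between them is uncertain.

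Cd68 (probe set 10387536), a glycoprotein of the macrophage lysosome, read 147, 116 and 136 in wild type, 126, 116 and 166 in heterozygotes and 206, 171 and 233 in labelled knockouts. The labelled knockouts again did not overlap either group, although knockout 2 at 171 and heterozygote 3 at 166 lay close. The log2 difference was 0.61 ± 0.16 (SE) from wild type (adjusted p = 0.221, limma) and 0.59 ± 0.16 from heterozygotes (adjusted p = 0.196, limma), with exact permutation p = 0.1 for both.

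Adgre1 (probe set 10446282) encodes F4/80, the surface receptor used to mark mouse tissue macrophages. Its intensities were 83.5, 76.4 and 87.9 in wild type, 87.9, 81.4 and 78.5 in heterozygotes and 117, 101 and 123 in labelled knockouts. The 6 wild-type and heterozygous arrays were intermixed, and all 3 labelled knockouts lay above them. The log2 difference was 0.46 ± 0.09 from wild type (SE; adjusted p = 0.123, limma; exact permutation p = 0.1) and 0.45 ± 0.09 from heterozygotes (adjusted p = 0.117, limma). Heterozygotes and wild type differed by 0.00095 ± 0.09.

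Csf1r (probe set 10456071), the receptor for the macrophage growth factors CSF1 and IL34, separated less clearly. It read 208, 171 and 180 in wild type, 174, 160 and 150 in heterozygotes and 252, 188 and 248 in labelled knockouts. Knockout 2 lay below wild type 1, so these groups overlapped, whereas all labelled knockouts lay above all heterozygotes. The log2 difference was 0.29 ± 0.12 from wild type (SE; adjusted p = 0.453, limma; exact permutation p = 0.2) and 0.49 ± 0.12 from heterozygotes (adjusted p = 0.180, limma; exact permutation p = 0.1). Heterozygotes stood at -0.20 ± 0.12 from wild type (adjusted p = 0.815, limma).

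C1qa, C1qb and C1qc (probe sets 10517517, 10517508 and 10517513) encode the chains of C1q, the recognition molecule of the classical complement pathway, which binds immune complexes and dying cells. C1qa read 183, 175 and 186 in wild type, 188, 162 and 168 in heterozygotes and 262, 212 and 242 in labelled knockouts. C1qb read 189, 165 and 179 in wild type, 173, 133 and 156 in heterozygotes and 244, 212 and 287 in labelled knockouts. For both, every labelled knockout lay above every other array. C1qc read 245, 198 and 190 in wild type, 227, 173 and 201 in heterozygotes and 302, 234 and 326 in labelled knockouts, so knockout 2 lay below wild type 1. The differences from wild type were 0.39 ± 0.09, 0.47 ± 0.13 and 0.44 ± 0.15 for C1qa, C1qb and C1qc (SE; adjusted p = 0.173, 0.245 and 0.350, limma). From heterozygotes they were 0.46 ± 0.09, 0.68 ± 0.13 and 0.51 ± 0.15 (adjusted p = 0.115, 0.115 and 0.216, limma). The 3 chains assemble into 1 protein, and their differences from wild type lay within 1 SE of each other.

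The C1q genes stand side by side in the order C1qb, C1qc, C1qa in the RefSeq annotation of GRCm38.p6. The genes next to the cluster stood near 0 in labelled knockouts against wild type. The ephrin receptor genes Ephb2 on one side and Epha8 on the other stood at 0.03 ± 0.08 and -0.07 ± 0.10 (SE; adjusted p = 0.960 and 0.876, limma).

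Promoters are shown for the 4 genes with the largest differences among those with a window in the table, to set the sequences of genes that stood higher together beside one another. They are the 250 bases before the RefSeq start (build GRCm38.p6), all on the minus strand, 5′ to 3′, at chr4:136886201-136886450 for C1qb, chr4:136892915-136893164 for C1qc, chr11:69666171-69666420 for Cd68 and chr10:117282273-117282522 for Lyz2. Capitals mark GAGGAA or its reverse complement TTCCTC, a core bound by PU.1, the transcription factor of the myeloid lineage.
C1qb: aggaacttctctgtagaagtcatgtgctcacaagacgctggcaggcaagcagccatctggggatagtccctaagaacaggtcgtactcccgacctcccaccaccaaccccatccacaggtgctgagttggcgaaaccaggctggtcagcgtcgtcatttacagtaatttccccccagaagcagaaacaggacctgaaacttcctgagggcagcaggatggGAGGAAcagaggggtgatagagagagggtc
C1qc: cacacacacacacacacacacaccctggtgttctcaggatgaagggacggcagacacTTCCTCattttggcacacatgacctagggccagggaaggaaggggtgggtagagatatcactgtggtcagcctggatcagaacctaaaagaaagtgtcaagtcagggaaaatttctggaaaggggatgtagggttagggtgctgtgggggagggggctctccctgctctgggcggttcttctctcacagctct
Cd68: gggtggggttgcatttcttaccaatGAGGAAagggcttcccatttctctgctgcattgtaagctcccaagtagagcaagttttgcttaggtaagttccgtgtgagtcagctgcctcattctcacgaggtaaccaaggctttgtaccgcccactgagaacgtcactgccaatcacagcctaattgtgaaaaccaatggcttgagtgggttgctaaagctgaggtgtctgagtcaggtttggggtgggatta
Lyz2: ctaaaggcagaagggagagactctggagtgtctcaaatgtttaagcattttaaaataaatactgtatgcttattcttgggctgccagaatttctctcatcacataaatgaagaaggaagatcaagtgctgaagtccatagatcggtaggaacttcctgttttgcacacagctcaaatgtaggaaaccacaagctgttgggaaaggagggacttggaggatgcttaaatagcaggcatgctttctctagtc
The motif GAGGAA, read on both strands, starts 30 bases before the start of C1qb, 193 before that of C1qc and 225 before that of Cd68, and these letters are not in the Lyz2 window. Of 6 macrophage genes with a window in the table, 4 held it, and so did 23.3% of 32851 mouse windows of the same length. TGCTGA, a core bound by MAF factors, was in 2 of the 6 windows, C1qb and Lyz2, against 16.1% of all, and TTGCNNAA, bound by C/EBP factors, was in 1 of 6 (Cd68) against 9.56%. A match describes the letters and does not show that a factor binds there.

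The LPS co-receptor gene Cd14 (probe set 10458382) was the exception to the pattern in heterozygotes. It read 46.3, 45.8 and 52.6 in wild type, 54.4, 58.5 and 54.4 in heterozygotes and 61.4, 54.4 and 57.6 in labelled knockouts. Both the heterozygous and the labelled knockout arrays lay above all wild-type arrays, and they overlapped each other. The log2 difference from wild type was 0.26 ± 0.07 in labelled knockouts (SE; adjusted p = 0.252, limma) and 0.21 ± 0.07 in heterozygotes (adjusted p = 0.815, limma), with exact permutation p = 0.1 for both. Labelled knockouts and heterozygotes differed by 0.05 ± 0.07 (adjusted p = 0.774, limma). Cd14 was dim: 29.0% of tested probe sets had a mean intensity as low or lower.

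The scavenger receptor genes had the smallest differences between labelled knockouts and wild type. Mrc1 (probe set 10469358) encodes the mannose receptor CD206 of resident macrophages and read 174, 172 and 177 in wild type, 152, 173 and 173 in heterozygotes and 212, 176 and 198 in labelled knockouts. Knockout 2 lay within the wild-type range, and the difference from wild type was 0.16 ± 0.08 (SE; adjusted p = 0.520, limma; exact permutation p = 0.2). Against heterozygotes it was 0.23 ± 0.08 (adjusted p = 0.259, limma), without overlap. Cd163 (probe set 10541644), the receptor for haemoglobin bound to haptoglobin, read 43.5, 46.0 and 40.5 in wild type, 44.9, 35.7 and 42.9 in heterozygotes and 43.5, 48.5 and 45.2 in labelled knockouts. Its groups overlapped in every comparison, with 0.08 ± 0.09 between labelled knockouts and wild type (adjusted p = 0.843, limma; exact permutation p = 0.5). It was the dimmest of the 10, with 24.0% of tested probe sets as low or lower.

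**Figure D2:**
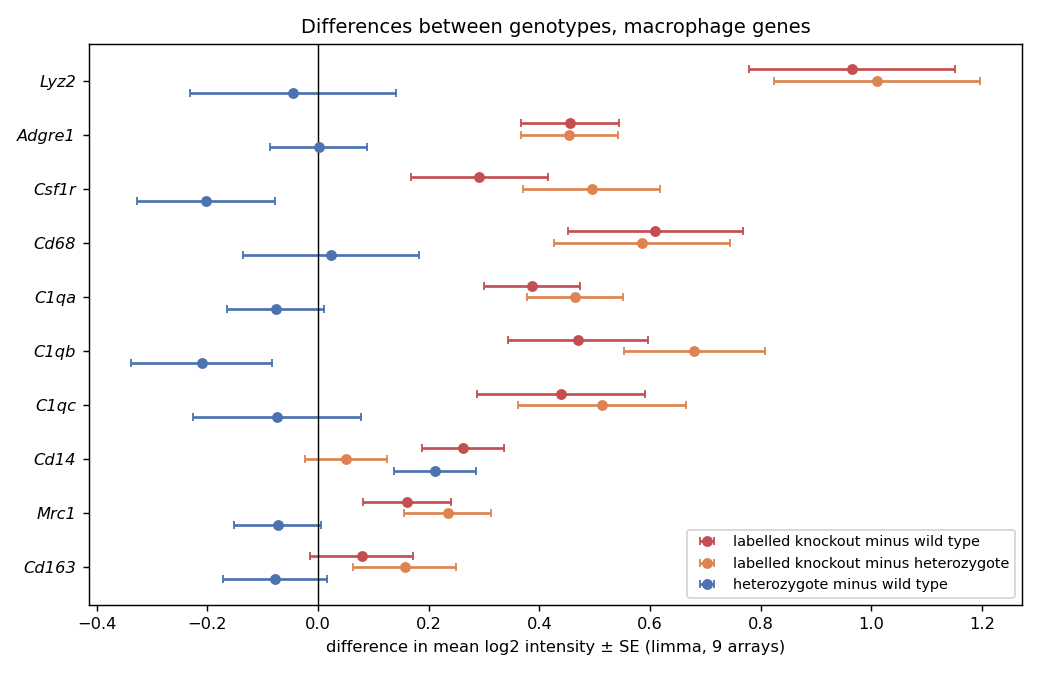
Difference in mean log2 intensity ± SE (limma over 9 arrays) for each macrophage gene in 3 comparisons. Points for labelled knockouts against wild type run from 0.08 (Cd163) to 0.97 (Lyz2), and those for heterozygotes against wild type lie between -0.21 (C1qb) and 0.21 (Cd14).

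Counted over the genes, labelled knockouts lay wholly above wild type for 6 of 10 (Lyz2, Cd68, Adgre1, C1qa, C1qb and Cd14), where 6.51% of probe sets did so. They lay wholly above heterozygotes for 8 of 10, all but Cd14 and Cd163, against 8.08% of probe sets. For 5 genes, Lyz2, Cd68, Adgre1, C1qa and C1qb, every labelled knockout exceeded all 6 other arrays, against 3.73% of probe sets. Between heterozygotes and wild type, 3 of 10 genes had a higher mean in heterozygotes and 7 a lower one, 1 (Cd14) lay wholly above wild type (4.13% of probe sets did), and 0 passed in limma over all probe sets, with 1 (Cd14) at an unadjusted p under 0.05 (2.71% of probe sets higher). In the authors' deposited table of p-values, which are not adjusted, 5 of the 10 were higher in labelled knockouts than in wild type at p under 0.05, against 3.29% of probe sets. Those 5 are Adgre1 (p = 0.0139 in the authors' deposited table), C1qa, Cd68, Cd14 and C1qb, while Lyz2, whose labelled knockouts were the most spread, had p = 0.0544 in the authors' deposited table. In the authors' deposited table for heterozygotes against wild type 1 was higher (Cd14; 1.52% of probe sets), and in that for labelled knockouts against heterozygotes 5 were (4.09%).

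The labelled knockouts were not alike. Averaged over the 10 genes, the deviation from each gene's mean over the 9 arrays was 0.34, 0.10 and 0.43 in labelled knockouts 1 to 3. The same mean was -0.06, -0.19 and -0.11 in wild type and -0.12, -0.26 and -0.14 in heterozygotes. Every labelled knockout thus stood above every other array in this mean, with knockout 2 the nearest to the others. Knockout 3 held the highest value of 5 genes (Lyz2, Adgre1, Cd68, C1qb and C1qc), knockout 1 of 4 (Csf1r, C1qa, Cd14 and Mrc1) and knockout 2 of 1 (Cd163). Heterozygote 2 held the lowest value of 5 genes and wild type 2 of 3. Within labelled knockouts, the array with Taf4b near the wild-type mean was the one with the lowest macrophage mean. Between knockouts 1 and 3, however, the array with less Taf4b (332 in knockout 1 against 403) had the lower macrophage mean. A relation to the Taf4b level was not tested.

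**Figure D3:**
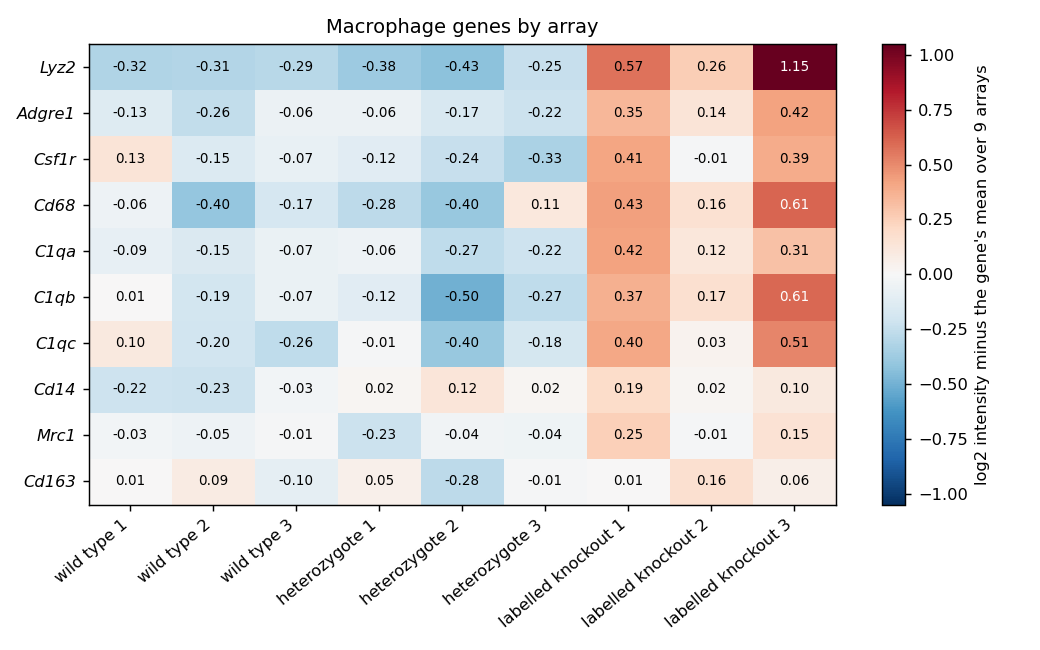
Log2 intensity of each macrophage gene minus its own mean over the 9 arrays (colour and number), by array. The columns of labelled knockouts 1 and 3 are above 0 for all 10 genes and that of knockout 2 for 8, and Lyz2 is at its highest in knockout 3.

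Calls of single genes against heterozygotes turned on knockout 2. With all arrays, 0 of the 10 passed for labelled knockouts against heterozygotes in limma (8 at an unadjusted p under 0.05, where 7.71% of probe sets were higher), and 0.00398% of probe sets were called higher. Without knockout 2, 5 of the 10 rose and passed, where 0.729% of probe sets were called higher. They were Lyz2 at 1.21, Adgre1 at 0.54, Csf1r at 0.63, C1qa at 0.55 and C1qb at 0.79, with adjusted p between 0.0308 and 0.0445 (limma). The same 5 passed without knockout 2 and heterozygote 1 together (1.08% of probe sets called higher), and 4 of them, all but Csf1r, with array weights over all arrays (0.367%). Against wild type without knockout 2, 0 of the 10 passed (0.00398% of probe sets were called higher), the lowest adjusted p was 0.0516 (limma), 9 of the 10 had an unadjusted p under 0.05 (6.96% of probe sets higher) and the median was 0.50. Without knockout 3 the median against wild type was 0.35 and 6 had an unadjusted p under 0.05 (3.65% of probe sets higher); without knockout 1 these were 0.36 and 6 (3.29%).

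Across the 9 arrays the genes followed each other to unequal degrees. As a description over arrays that share their genotypes, Pearson's r between pairs had a median of 0.77 over 45 pairs and was above 0 in 44. C1qb, Adgre1 and C1qa followed the mean of the other 9 genes most closely, at r = 0.96, 0.96 and 0.95, and Cd14 and Cd163 least, at 0.44 and 0.40. After each genotype's mean was removed, r with the others was 0.90 for C1qb, 0.85 for C1qc and 0.71 for Lyz2 but 0.33 for Mrc1, 0.14 for Cd14 and -0.12 for Cd163.

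Further genes known from macrophages also stood higher in labelled knockouts 1 and 3. The lists of such genes below were drawn up with earlier results of these data known. Of 25 further macrophage genes, 23 had a higher mean in labelled knockouts than in wild type, with a median of 0.30. At an unadjusted p under 0.05, 14 were higher (4.89% of all probe sets), 11 lay wholly above wild type (6.51% of all), and 0 passed in limma over all probe sets (0.012% called higher). The same shares of all probe sets apply to the higher counts of the other lists. For genes lower in labelled knockouts than in wild type at an unadjusted p under 0.05, the share was 5.77%. Ctss, the lysosomal protease cathepsin S, stood at 0.97 ± 0.29 (SE; adjusted p = 0.274, limma). It read 300.3, 246 and 271 in wild type, 302, 217 and 265 in heterozygotes and 589, 320.4 and 795 in labelled knockouts, again lowest of these in knockout 2. Cybb, a subunit of the phagocyte oxidase, stood at 0.75, Fcer1g, the shared signalling chain of Fc receptors, at 0.46 and Lilrb4a, an inhibitory receptor, at 0.37. Averaged over this list, the deviation from each gene's mean was 0.20, -0.0091 and 0.46 in labelled knockouts 1 to 3, against -0.17 to -0.03 in wild type. Heterozygotes differed from wild type by a median of -0.04.

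Genes around CSF1R were split. Of 15, 10 were above and 5 below wild type in labelled knockouts, with a median of 0.06, 1 at an unadjusted p under 0.05 in each direction and 0 passing in limma. Il34, a ligand of CSF1R, stood at -0.33 ± 0.14 (SE; adjusted p = 0.451, limma), with 203, 229 and 171 in wild type and 187, 131 and 161 in labelled knockouts, which overlap. Tyrobp, the adaptor of myeloid receptors, stood at 0.33 and Irf8, a myeloid transcription factor, at 0.16.

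Complement and phagocytic genes stood higher in part. Of 18 genes around C1q in the classical pathway, 16 were above wild type with a median of 0.19, 8 at an unadjusted p under 0.05 and 0 passing in limma. C1s1, a protease of the classical pathway, stood at 0.39 ± 0.07 (adjusted p = 0.122, limma), and C3ar1, the myeloid receptor for the fragment C3a, at 0.63 ± 0.15 (SE; adjusted p = 0.198, limma). C2, a protease of the same pathway, stood at 0.37. Of 18 phagosome and lysosome genes, 15 were above with a median of 0.20, 8 at an unadjusted p under 0.05, and 0 passed in limma. Cathepsin B (Ctsb), which many cell types of the ovary make, stood at 0.31 ± 0.06 (adjusted p = 0.132, limma), Lamp2 at 0.26, progranulin (Grn) at 0.22 and Ctsz at 0.23. Of 19 genes of resident macrophages and scavenging, 14 were above with a median of 0.14, 6 at an unadjusted p under 0.05 and 0 passing, among them Selenop, a secreted selenium carrier, at 0.36, Gas6, a ligand that bridges dying cells to phagocytes, at 0.43, the scavenger receptor gene Msr1 at 0.26 and Stab1 at 0.23.

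Receptors of microbial products and chemokines had more members above than below wild type. Activation genes were split, with 10 above and 5 below, as were the genes around CSF1R. Of 16 genes of the LPS receptor and other Toll-like receptors, 12 were above with a median of 0.06. At an unadjusted p under 0.05 were 3: Tlr7 at 0.29, Ly86 at 0.47 and Tlr4, the receptor that CD14 serves, at 0.32. Lbp, which hands LPS to CD14, stood at 0.20. Of 19 chemokine genes and receptors, 14 were above with a median of 0.14 and 7 at an unadjusted p under 0.05. Against heterozygotes 2 were higher at that threshold (7.71% of all probe sets higher) and 1 was lower. Cxcl12, a chemokine of stromal cells, stood at 0.57 ± 0.10 from wild type (adjusted p = 0.106, limma) and did not overlap. The monocyte chemokines Ccl12, Ccl3 and Ccl6 stood at 0.47, 0.38 and 0.33 from wild type. Of 15 genes of activation state, 10 were above with a median of 0.08 and 1 at an unadjusted p under 0.05, Il4ra, the interleukin 4 receptor, at 0.45; Il1rn stood at 0.21, Nos2 at -0.30 and Chil3 at -0.27. In these 3 lists 0 passed in limma.

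Markers of other blood cells were split between higher and lower. Of 15 monocyte and neutrophil genes, 7 were above and 8 below wild type (median -0.02), with 2 at an unadjusted p under 0.05: Ltf, of neutrophil granules, at 0.55 and Ly6c1, which endothelium also makes, at 0.39, beside Plac8 at -0.29 and Mpo at -0.29. Of 17 lymphocyte genes, 7 were above and 10 below (median -0.02). At an unadjusted p under 0.05, 1 was higher and 2 were lower (5.77% of all probe sets lower). The B cell gene Ms4a1 stood at -0.84 ± 0.12 (SE; adjusted p = 0.0635, limma), Il7r at 0.27, Cd3d at -0.14 and Cd79b at 0.13. Of 15 dendritic and mast cell genes, 10 were above and 5 below (median 0.04), with 1, the histidine decarboxylase gene Hdc, at an unadjusted p under 0.05 (0.25), and Ms4a2, Tpsab1 and Cma1 at -0.15, -0.12 and 0.12. In these 3 lists 0 passed in limma. The summed lymphocyte intensity was 781 to 833 in wild type and 728 to 832 in labelled knockouts, which overlap. The sum of the 10 macrophage genes was 1424 to 1577 in wild type, 1331 to 1474 in heterozygotes and 1779 to 2472 in labelled knockouts, which do not overlap the others.

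**Figure D4:**
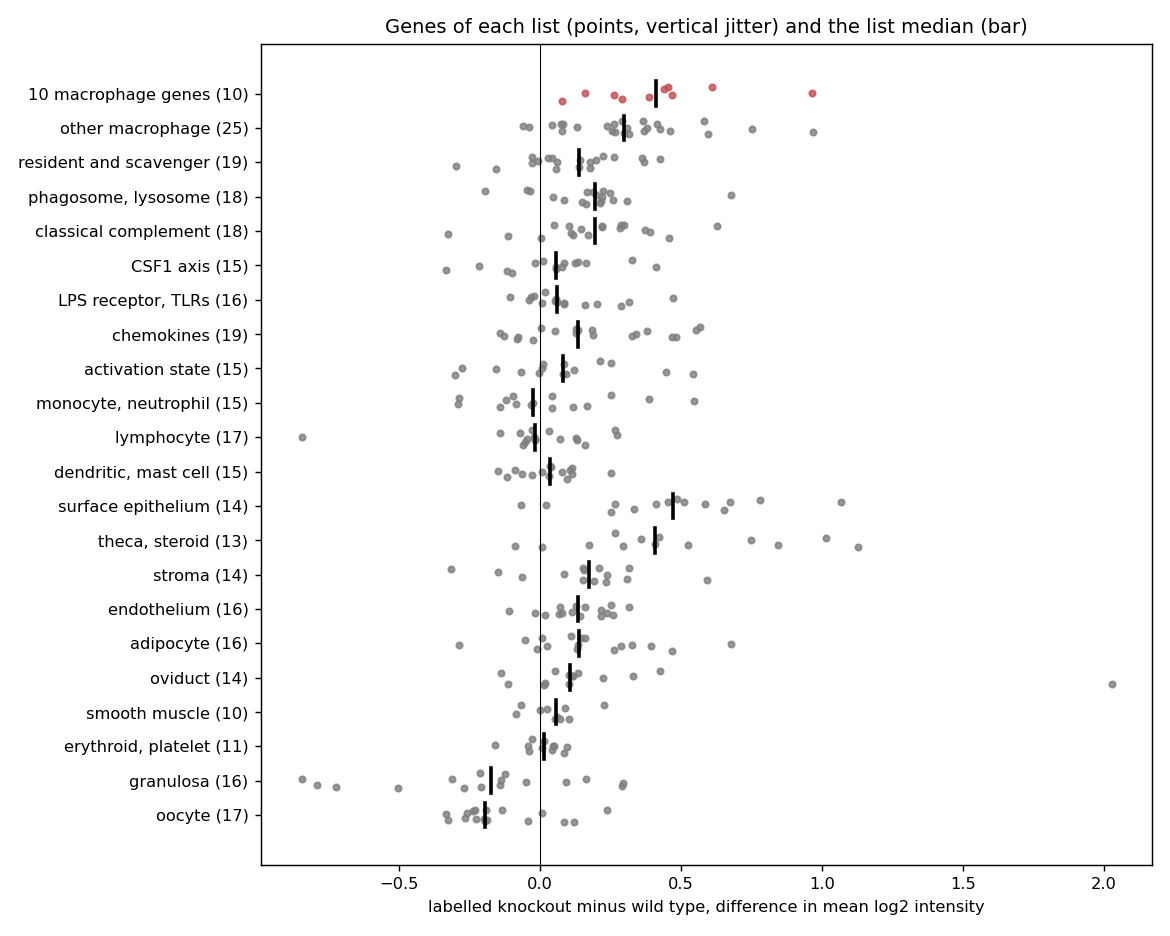
Difference in mean log2 intensity between labelled knockouts and wild type for the genes of each list (points, number of genes in brackets) with the list median (bar). The 10 macrophage genes (median 0.41), surface epithelium (0.47) and theca (0.41) lie furthest to the right, and granulosa (-0.17) and oocyte genes (-0.19) to the left.

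Markers of several other ovarian and neighbouring cell types also stood higher in labelled knockouts. Of 14 surface epithelium genes, 13 were above wild type (median 0.47), 12 at an unadjusted p under 0.05 (4.89% of all probe sets were higher at that threshold) and 1, Plet1 at 1.07 ± 0.13 (SE; adjusted p = 0.0363, limma), rose (0.012% of all probe sets were called higher). Plet1 did not pass in every setting. Against wild type, 0 probe sets were called higher with only the 6 arrays compared, with probe sets lacking a symbol included, or with the replicate number as a block. The same held without wild type 2, heterozygote 2, heterozygote 3, knockout 1 or knockout 3, each left out alone. Mesothelin (Msln) stood at 0.46, Upk1b at 0.78 and Aldh1a2 at 0.65. Their summed intensity was 4412 to 5278 in wild type and 6270 to 6837 in labelled knockouts, without overlap. Theca genes were above in 12 of 13 (median 0.41; Prlr 0.42, Nr5a1 0.27, Agtr2 0.41 and Lhcgr 0.53) and differed by array in another order, with mean deviations of 0.73 in knockout 2 and 0.03 and -0.04 in knockouts 1 and 3. Their summed intensity was 9348 to 10461 in wild type, 9589 to 15246 in heterozygotes and 10769 to 19582 in labelled knockouts. Heterozygote 3, the highest heterozygote, lay above knockout 1 (10921) and knockout 3 (10769). Stroma was above in 11 of 14 (median 0.17; Lum 0.59, Col1a2 0.24, Dcn 0.31, Col6a3 0.19) and endothelium in 14 of 16 (median 0.14; Esam 0.32, Kdr 0.24, Sox17 0.22, Tie1 0.25), with summed intensities of 26009 to 27827 against 28815 to 31514 and of 5463 to 5899 against 6022 to 6339, neither overlapping. Gene by gene, 6 of 14 stroma genes but 1 of 16 endothelium genes lay wholly above wild type, against 6.51% of all probe sets. Adipocyte genes were above in 13 of 16 (median 0.14; Car3 0.68, Plin1 0.47, Lpl 0.13, Retn 0.40) and oviduct genes in 12 of 14 (median 0.11; Ovgp1 2.03, Tppp3 0.42, Rsph1 0.33, Tuba1a 0.10). In heterozygotes 12 of 16 adipocyte genes were below wild type, 6 at an unadjusted p under 0.05 (3.04% of all probe sets lower). Summed adipocyte intensity was 5222 to 5357 in wild type and 5745 to 6820 in labelled knockouts. Summed oviduct intensity was 3335 to 3601 and 3917 to 4310, and neither sum overlapped. Gene by gene, 5 of 16 adipocyte and 2 of 14 oviduct genes lay wholly above wild type (6.51% of all probe sets), and 0 and 1 wholly below. Smooth muscle (8 of 10 above, median 0.06; Rgs5 0.23, Mcam 0.09, Tagln 0.07, Cspg4 -0.08) and erythroid genes (7 of 11 above, median 0.01; Epb42 -0.16, Gp9 0.10 and Tfrc 0.08) stood near 0. The part of these cell types in the macrophage result was not tested.

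Granulosa genes stood lower in labelled knockouts 1 and 3, and oocyte genes in knockout 2. Granulosa genes were below wild type in 12 of 16 (median -0.17), with 0 passing in limma. At an unadjusted p under 0.05, 6 were lower (5.77% of all probe sets) and 1 higher (4.89%). Fst, Fshr, Serpine2 and Inhbb stood at -0.72, -0.79, -0.21 and -0.84. The mean deviation of the granulosa genes was -0.14, 0.11 and -0.37 in labelled knockouts 1 to 3, which reverses the order of the macrophage mean. Fst, the activin-binding follistatin, read 2034, 2404 and 2370 in wild type and 1249.6, 1864 and 1108 in labelled knockouts 1, 2 and 3. Oocyte genes were below wild type in 13 of 17 (median -0.19; Bmp15 -0.22, Nobox -0.33, Oog1 -0.19, Sohlh2 -0.32), with 0 at an unadjusted p under 0.05 and 0 passing. Their mean deviation was -0.35 in knockout 2 against 0.16 and 0.23 in knockouts 1 and 3. In wild type it was 0.35, 0.17 and -0.06, so knockouts 1 and 3 lay within the wild-type range. In heterozygotes 17 of 17 oocyte genes were below wild type (median -0.32), 5 of them at an unadjusted p under 0.05 (3.04% of all probe sets were lower at that threshold) and 0 passing in limma. Labelled knockouts stood above heterozygotes for 13 of the 17 (median 0.17). The summed granulosa intensity was 45069 to 47178 in wild type and 35323 to 46720 in labelled knockouts. The part of these shifts in the macrophage result was not tested.

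**Figure D5:**
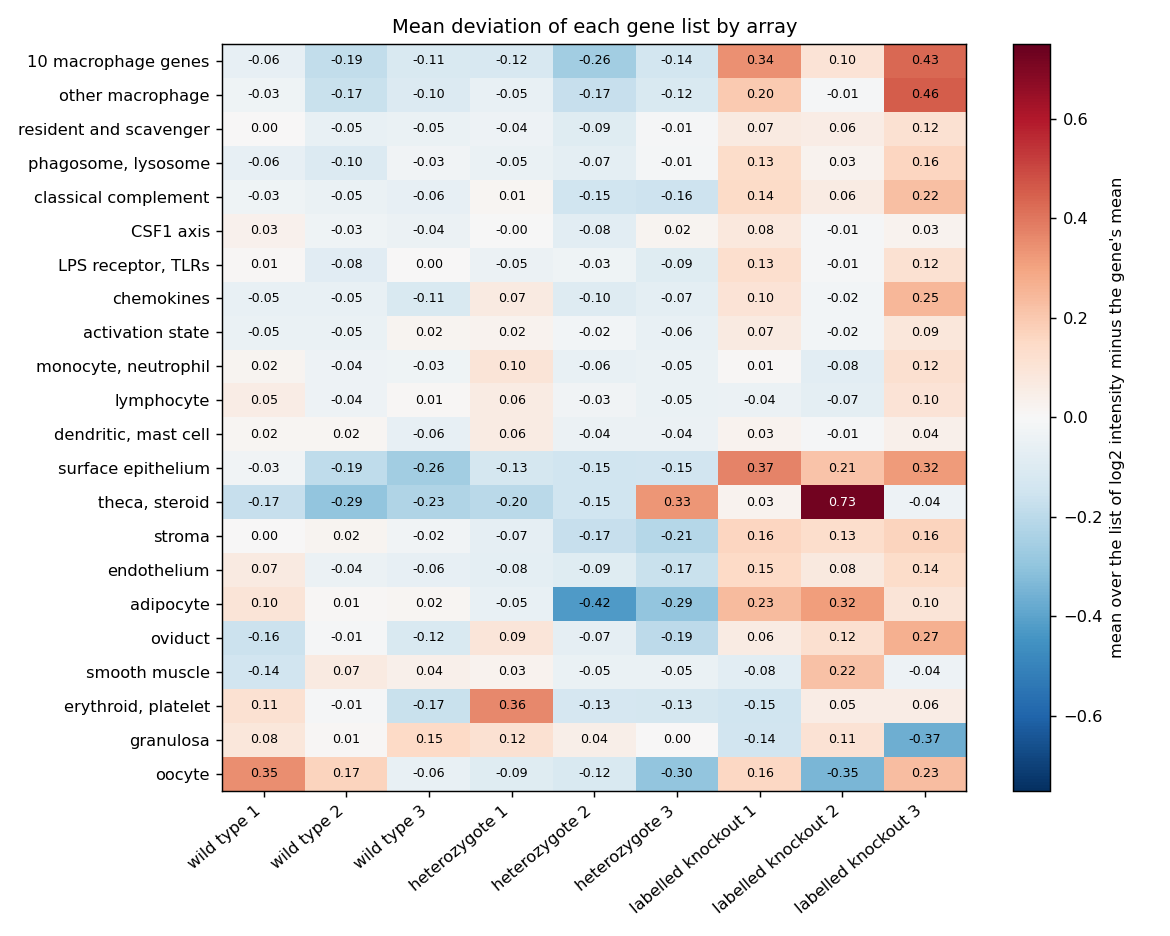
Mean deviation of each gene list (log2 intensity minus each gene's mean over the 9 arrays, averaged over the list) on each array. The macrophage row is 0.34, 0.10 and 0.43 in labelled knockouts 1 to 3, the granulosa row -0.14, 0.11 and -0.37, and the theca row 0.03, 0.73 and -0.04.

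Among the 10 genes whose profile over the 9 arrays was most like the mean of the macrophage genes were Crip1, Ctss, Tgfbr2, Cbr1, Sparcl1, Litaf, Lhx9, Stk26 and Cxcl16, out of 10374 genes compared. Over these 10 genes, Pearson's r with that mean lay between 0.956 and 0.976, Spearman's rho between 0.683 and 0.983, and r without labelled knockouts 1 and 3 between 0.745 and 0.965. In all, 122 genes had r above 0.9, and the arrays share their genotypes, so these values are a description. Crip1, a small LIM protein, read 390, 372 and 362 in wild type, 390, 349 and 382 in heterozygotes and 464, 436 and 496 in labelled knockouts. Cxcl16, a chemokine that is also a scavenger receptor, read 163, 158 and 163 in wild type and 186, 163 and 203 in labelled knockouts. Sparcl1, a matrix protein of stroma and vessels, stood at 0.33, and the TGF-beta receptor gene Tgfbr2 at 0.16, in labelled knockouts against wild type, with 0 of the 10 passing in limma.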

How the data were processed

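Ovarian RNA of 9 mice was profiled on GeneChip Mouse Gene 1.0 ST arrays, and samples were grouped by the genotype in the labels. The authors' normalization, per the series' design text, was RMA-Sketch (Affymetrix Expression Console 1.1). Judged by their range, the deposited intensities are on a linear scale. Per the file headers, the authors also deposited, for each pair of genotypes, a ratio (fold change of group means) and a p-value, beside intensities identical to those of the value table.

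Of 28266 probe sets, 25100 had a symbol and were tested; 151 of these had several. Symbols were updated with the RefSeq table of GRCm38.p6, which also gave gene order and promoters: 18708 probe sets matched by accession, 2211 by symbol and 1751 by synonym, while 2279 kept the symbol of the file. No value column was left unmapped (0). Genes with several probe sets are given at the highest mean.

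Log2 intensities were fitted in limma 3.58.1 (R 4.3.3). A single model held the 9 arrays of all genotypes, which pools their spread, followed by eBayes and Benjamini-Hochberg adjustment across all 25100 probe sets. Tests were two-sided and the threshold was an adjusted p of 0.05. The procedure was tested on simulated data. Exact permutation tests compared mean log2 values of single genes. The 10 genes and all lists were chosen with earlier results of these data known, so no test over a list is given. The text names, by rule, the 10 genes, Taf4b, up to 4 genes with the smallest p from each list and the 10 most similar profiles among genes at or above the median intensity, without predicted genes. Zp3, Inha, Lyz1, Ephb2 and Epha8 were chosen after their values were seen. Of the genes the rule selects, 4 are not reported here.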

Additional observations from a re-analysis of the deposited data

How the results depend on the processing

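The 3 median differences of the 10 genes kept to within the spread between arrays of a genotype (SD 0.114) under all alternatives but 1: against heterozygotes the median was 0.63 without knockout 2 and heterozygote 1 together. Leaving out 1 array at a time, the medians ranged from 0.35 to 0.50 against wild type, from 0.42 to 0.59 against heterozygotes and from -0.10 to 0.0027 between heterozygotes and wild type. Of 189 single-gene values per comparison, 3 crossed the threshold against wild type, all with array weights (adjusted p 0.0292 to 0.0382, limma), and 14 against heterozygotes, with array weights, without knockout 2, or without knockout 2 and heterozygote 1 together (0.0308 to 0.0482, limma). The cause was not tested. None crossed between heterozygotes and wild type. There 10 uncalled values changed sign. Adgre1 was -0.037 with quantile normalization, -0.0063 with arrays centred on their median, -0.044 without knockout 2 and heterozygote 1 together, and from -0.054 to 0.047 without 1 array. Without 1 array, Cd68 ranged from -0.127 to 0.129, C1qc from -0.168 to 0.037 and Cd163 from -0.144 to 0.021. Probe sets called against wild type were 19, and 0 with only the 6 arrays compared, 48 after a filter on dim probe sets, 34 with trend and robust moderation, 199 with array weights, 3 with the replicate number as a block, 30 without knockout 2 and heterozygote 1, and between 2 and 20 without 1 array. Against heterozygotes they were 6, and 0, 30, 29, 152, 0 and 409 in the same settings, 26 with quantile normalization, and between 0 and 261 without 1 array, the highest without knockout 2. The deviations of same-numbered arrays had correlations from -0.193 to 0.334. These are too few and too mixed to decide whether the numbers mark a pairing. With the block 0 of the 10 genes passed, as without it. Each gene has 1 probe set, so averaging probe sets gave the same values. The filter on dim probe sets left out Cd163. Dim probe sets such as Cd14 and Cd163 limit what differences could be seen. Counts of the 10 genes without single arrays were added after seeing the data.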
